A study of Ovis aries with 24 samples.

Results

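The voltage-gated calcium and sodium channel genes described here were 32 of 27054 counted features, taken because their gene name is that of a calcium channel pore (CACNA1), alpha2delta (CACNA2D), beta (CACNB) or gamma-family (CACNG) gene or of a sodium channel pore or beta subunit (SCN). They were chosen by a rule on names that uses no measured value, though earlier results of these data were known when it was set. RNA-seq read counts were available for 24 libraries of primary pituitary cells from ovariectomized Western white faced ewes. The cultures had been exposed, 24 hours after dispersal, to an adenovirus built to express green fluorescent protein (GFP) in gonadotropes, the cells that secrete luteinizing and follicle-stimulating hormone. After a further 3 days they received 10 nM estradiol (E2) or its ethanol vehicle for 6 hours, and GFP-marked cells were collected by flow sorting. The 4 groups of 6 libraries were sorted cells with E2, sorted cells with vehicle, unsorted anterior pituitary cells with E2 and unsorted cells with vehicle, so every group shared the ovariectomy, the culture and the virus. The promoter that restricts GFP to gonadotropes is not given in the sources used here, and nothing in the labels says that the 6 libraries of a group came from separate animals. P-values therefore measure the spread between these libraries, which may be technical.

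Voltage-gated channels open when the membrane depolarizes. The pore subunit of each carries the voltage sensors and the ion pathway, alpha2delta and beta subunits bring calcium channel pores to the membrane and tune their gating, and sodium channel beta subunits modify sodium pores and act in cell adhesion. Pituitary endocrine cells fire action potentials, and calcium entry through these channels, together with release from internal stores, drives hormone secretion. In gonadotropes the hypothalamic hormone GnRH releases stored calcium, and entry through voltage-gated channels sustains the response. Gonadotropes also carry estrogen receptors, through which E2 changes their response to GnRH.

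Total counts ran between 4.19 and 6.19 M reads in the 12 libraries numbered 1 to 3. The 12 numbered 4 to 6 held between 19.2 and 37 M, so each group held both depths. Among libraries 4 to 6, depth differed by preparation, at 19.2 to 22.5 M in sorted and 32.1 to 37 M in unsorted libraries. The part of this depth difference in the results between sorted and unsorted cells was not tested. Libraries with the same number varied together across groups, and results are therefore also given from a fit that pairs libraries by number. Levels are read counts scaled to the size of each library (CPM). The sort was visible in the marker lists. All 6 tested gonadotrope markers were higher in sorted than in unsorted vehicle libraries. The 7 with a feature summed to 5100 to 8730 CPM in sorted and 1960 to 2930 CPM in unsorted vehicle libraries. The marker not tested, DMP1, was near 0, averaging 0.293 CPM among sorted and 0.192 CPM among unsorted vehicle libraries. Of 9 markers of other endocrine pituitary cells, 7 were also higher in sorted vehicle libraries, with sums of 77600 to 207000 CPM in sorted and 45100 to 117000 CPM in unsorted libraries.

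Of the 32 channel genes, 24 had enough reads to be tested in at least 1 of the 5 comparisons and 23 in all 5. Reads were found in all 24 libraries for 24 of them, and 21 reached a mean of at least 5 CPM in some group. The 7 with a mean of at least 50 CPM in some group were CACNA1C, CACNA2D1, CACNA2D2, CACNB3, SCN3A, SCN8A and SCN3B. CPM is not corrected for transcript length, so levels are compared between libraries and not between genes. The other 8 genes were at the edge of detection. The retinal pore CACNA1F had at most 5 reads in any library, CACNA2D4 at most 12, the muscle gamma gene CACNG1 at most 5, CACNG3 at most 1, CACNG5 at most 8, CACNG6 at most 1, the sensory neuron pore SCN11A at most 16 and the beta subunit SCN4B at most 7. None of the 8 passed the filter on low counts, so they were not tested here. In the authors' deposited table, whose fold changes run unsorted over sorted, SCN11A had a log2 value of -1.46 in vehicle cells with a false discovery rate of 0.047, and SCN4B one of -1.20 with a false discovery rate of 0.27. With vehicle, SCN11A was higher in the sorted library within 5 of 6 numbers, from at most 8 reads a sorted and 9 reads an unsorted library. With E2 it was higher in the sorted library within 4 of 6 numbers. The family members CACNA1B, CACNA1G, CACNA1H, CACNA1S, CACNB4 and CACNG8 have no feature of that name in the tables and were not analysed here. In the RefSeq annotation of sheep assembly ARS-UI_Ramb_v3.0, SCN7A, SCN9A and SCN1A are adjacent on chromosome 2, as are CACNG5, CACNG4 and CACNG1 on chromosome 11 and SCN4B and SCN2B on chromosome 15.

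**Figure D1:**
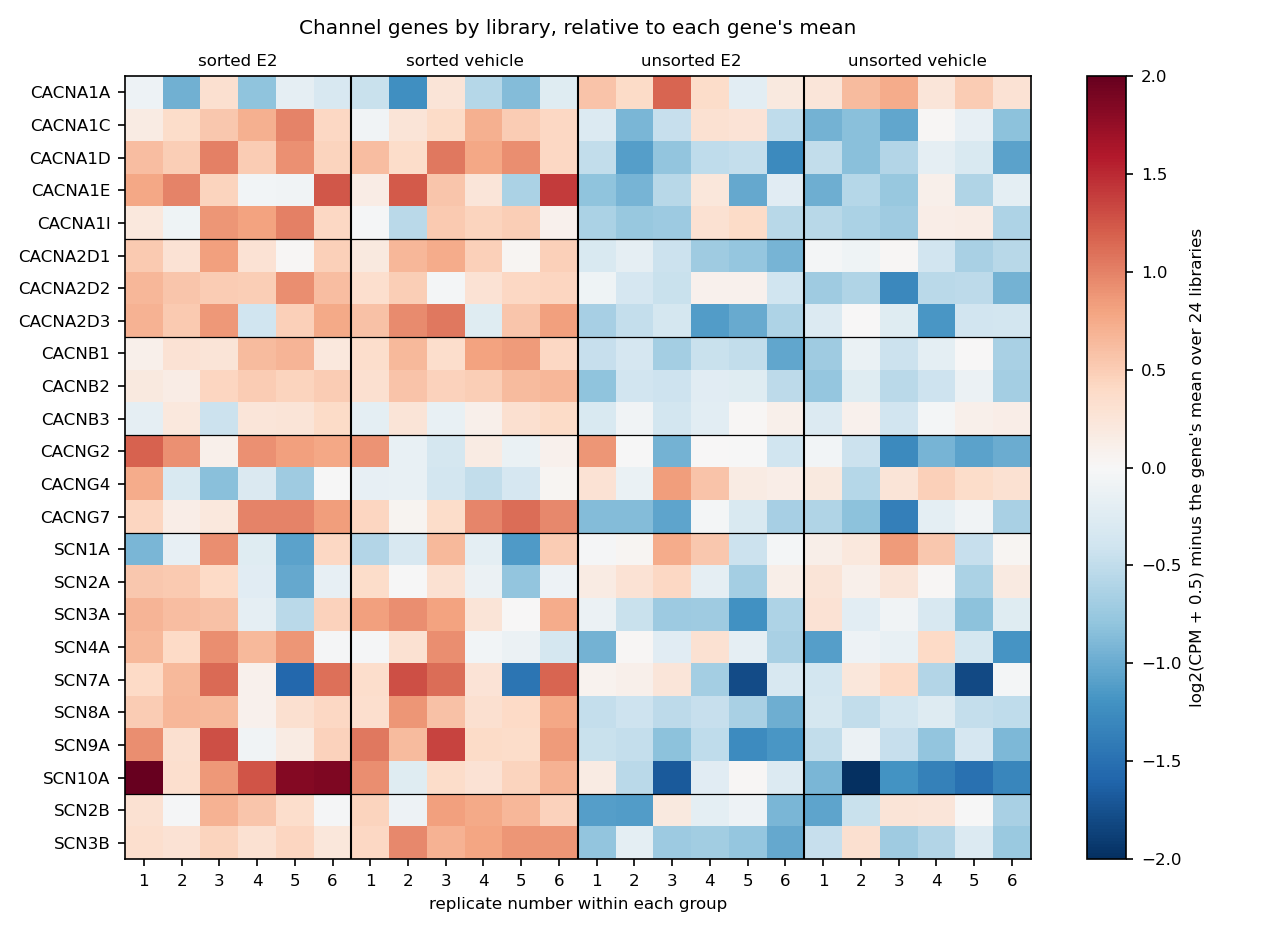
Level of the 24 tested channel genes (rows, grouped by subunit class) in each of the 24 libraries (columns, by group and replicate number), as log2(CPM + 0.5) minus the gene's mean over all 24 libraries; colours end at -2 and 2. Most rows are redder in the sorted groups than in the unsorted ones, CACNA1A runs the other way, and SCN10A is highest in sorted E2 libraries.

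The first comparison asked how the sorted cells, with higher markers of gonadotropes and of other endocrine cells, differ from the whole culture. With vehicle, 24 channel genes could be tested, of which 16 were higher and 2 lower in sorted than in unsorted libraries at an adjusted p under 0.05. Over all 14468 genes tested, 24.4% were higher and 25.8% lower. The median log2 fold change of the channel genes was 0.98, against 0.02 over all genes. Pairing by number raised the counts to 19 higher and 2 lower, where 32.5% and 31.1% of all genes were called. With E2 in both arms, 18 of 24 were higher and 1 lower in sorted libraries, beside 25.8% and 26% of all genes, and the paired fit gave 20 and 1, beside 33.9% and 31.8%. The marker lists moved in the same comparison, and in bulk samples fewer cells of a type and less RNA per cell cannot be told apart. With vehicle the median log2 fold change was 2.25 for gonadotrope markers, 0.86 for other endocrine markers and 1.21 for the neuron list. It was -2.45 for fibroblast and pericyte, -2.28 for smooth muscle, -2.23 for folliculostellate and stem cell, -1.26 for endothelial and -0.58 for immune markers. With vehicle, 6 of 9 tested fibroblast and pericyte markers were lower and 1 higher in sorted libraries, with sums of 674 to 1420 CPM in sorted and 3620 to 9300 CPM in unsorted libraries. All 4 tested smooth muscle markers were lower. The 6 tested neuron-list genes, several of which endocrine cells also use, were all higher, with sums of 812 to 1110 CPM in sorted and 351 to 500 CPM in unsorted vehicle libraries. The neuronal nuclear marker RBFOX3 was near 0 in both, averaging 0.181 CPM among sorted and 0.197 CPM among unsorted vehicle libraries. The Schwann and glial list summed to 0.331 to 0.851 CPM in sorted and 0.578 to 1.32 CPM in unsorted vehicle libraries. The part of the other cell types in the channel results was not tested.

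**Figure D2:**
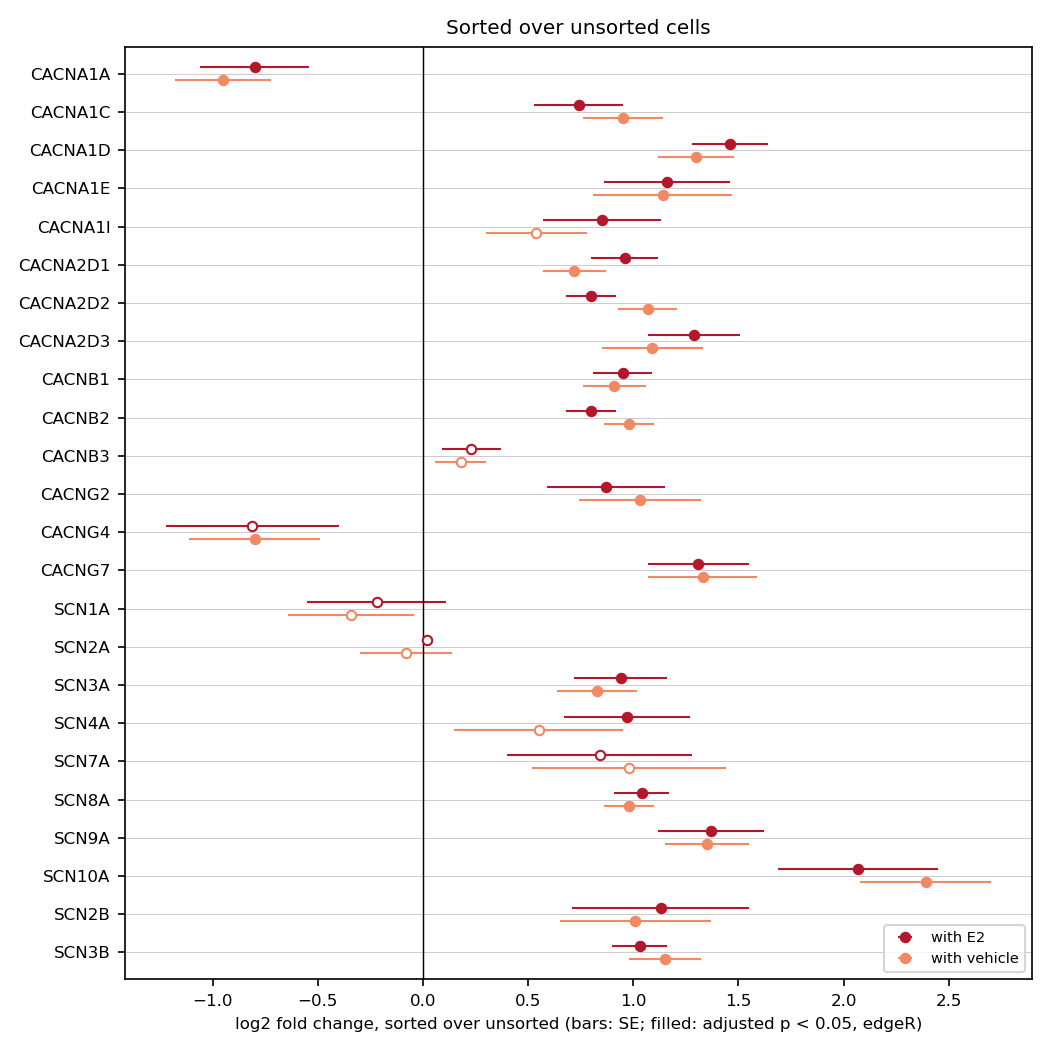
Log2 fold change of each tested channel gene, sorted over unsorted cells, in libraries with E2 (dark red, upper point) and with vehicle (orange, lower point); bars are standard errors (none drawn for a change within 0.02 of 0), and filled points have an adjusted p under 0.05 in edgeR without pairing. In both treatments most points lie to the right of 0, with SCN10A farthest right, at 2.07 in E2 libraries and 2.39 in vehicle libraries. CACNA1A, CACNG4 and SCN1A lie to the left in both, SCN1A with open points and CACNG4 with an open point in E2 libraries.

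Among the calcium channel pores, the L-type pair CACNA1C and CACNA1D rose in sorted cells. CACNA1D, the L-type pore that opens at more negative voltages, ranged from 18.6 to 30 CPM with a median of 23.5 in sorted vehicle libraries, against 6.51 to 12.5 CPM with a median of 9.62 in unsorted vehicle libraries. The ranges did not overlap with either treatment, and the log2 fold change was 1.46 ± 0.18 (SE) with E2, where sorted libraries held 19.5 to 29.2 CPM and unsorted libraries 5.62 to 10.1 CPM (adjusted p = 2e-05). CACNA1C, the L-type pore of heart and smooth muscle as well as endocrine cells, ranged from 49.8 to 86 CPM with a median of 69.7 in sorted vehicle libraries and from 25.3 to 53.3 CPM with a median of 29.3 in unsorted ones. The ranges touched only at their ends, and within every replicate number the sorted library was higher. The log2 fold change of CACNA1C was 0.95 ± 0.19 with vehicle (adjusted p = 0.00095) and 0.74 ± 0.21 with E2 (adjusted p = 0.0079).

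CACNA1E, the R-type pore, was more variable. It ran from 3.95 to 17.7 CPM with a median of 8.63 in sorted vehicle libraries, against 2.99 to 6.9 CPM with a median of 4.09 in unsorted vehicle libraries. Sorted libraries were higher within 5 of the 6 numbers, and the log2 fold change was 1.14 ± 0.33 (adjusted p = 0.011). In the paired fit of libraries 1 to 3 it was 1.57 and in that of libraries 4 to 6 it was 0.63, where the adjusted p was 0.18. CACNA1I, a T-type pore that opens at low voltages, ranged from 4.44 to 9.82 CPM with a median of 8.19 in sorted vehicle libraries and from 3.92 to 7.51 CPM with a median of 4.29 in unsorted ones. Its ranges overlapped widely, and its log2 fold change of 0.54 ± 0.24 did not pass the threshold without pairing (adjusted p = 0.077) but did with it, at 0.56 ± 0.17 (adjusted p = 0.013). With E2 the CACNA1I difference was 0.85 ± 0.28 (adjusted p = 0.019), a call that was lost without replicate 3 or without replicate 6, with an adjusted p of up to 0.076 and fold changes of 0.71 to 0.94 over the 6 omissions.

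CACNA1A, the P/Q-type pore that triggers transmitter release at many synapses, was the pore that fell in sorted cells. It ranged from 3.93 to 11.9 CPM with a median of 6.78 in sorted vehicle libraries, against 11.8 to 16.8 CPM with a median of 13.2 in unsorted vehicle libraries. Only the ends of the ranges met, and sorted libraries were lower within 6 of 6 numbers. The log2 fold change was -0.95 ± 0.23 with vehicle (adjusted p = 0.003) and -0.80 ± 0.26 with E2 (adjusted p = 0.02). The E2 call was lost without replicate 2 or without replicate 4, with an adjusted p of up to 0.054. It was kept in every omission of the paired fit, and lost in the paired fit of libraries 4 to 6 alone (adjusted p = 0.058).

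**Figure D3:**
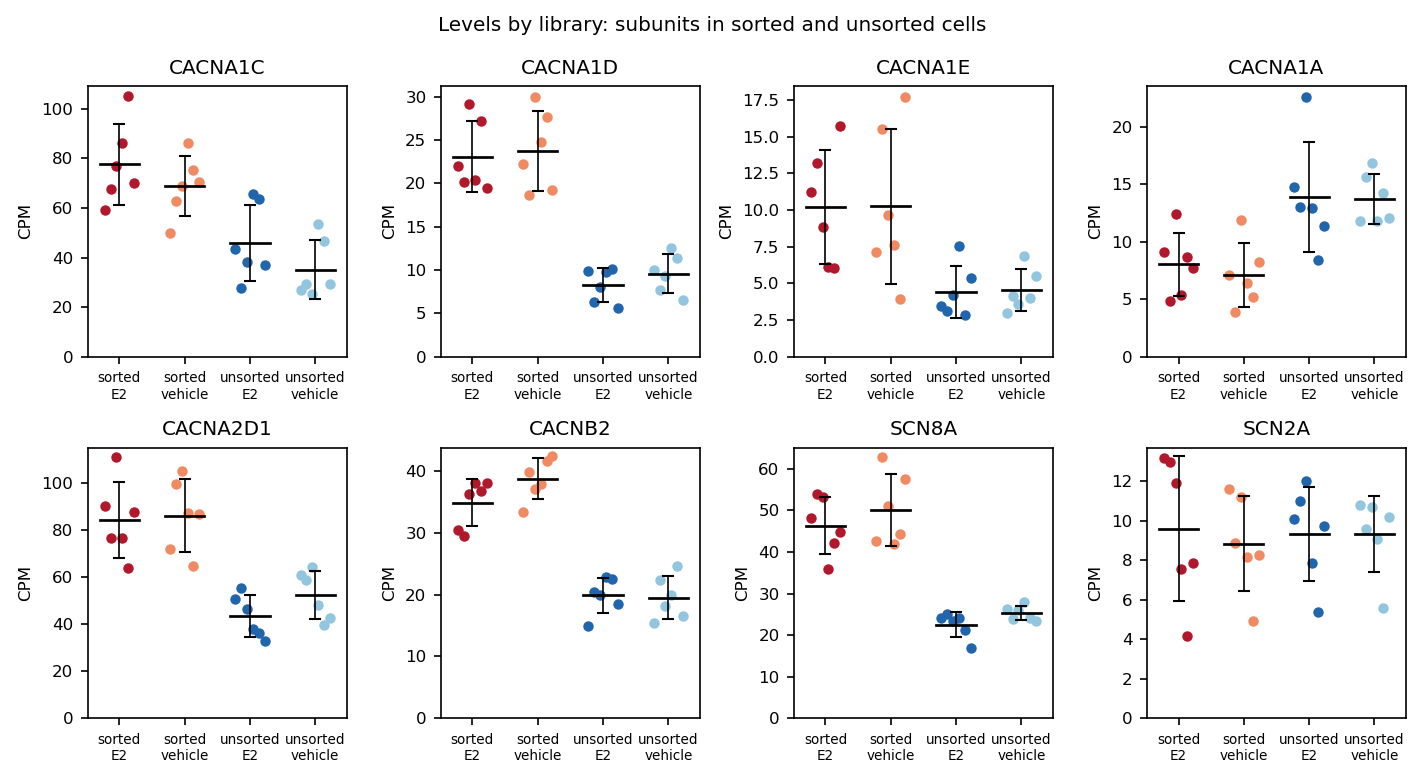
CPM of 8 channel genes in each library (points) of the 4 groups, with the group mean (line) and SD (whiskers), 6 libraries a group; each panel has its own axis starting at 0. CACNA1D, CACNA2D1, CACNB2 and SCN8A separate sorted from unsorted libraries completely within each treatment, CACNA1A is lower in sorted libraries, and the SCN2A groups lie on top of each other.

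All 3 tested alpha2delta genes rose in sorted cells. CACNA2D1, a subunit bound by gabapentin-type drugs, ranged from 64.6 to 105 CPM with a median of 87.1 in sorted vehicle libraries and from 39.7 to 64 CPM with a median of 53.3 in unsorted ones, a log2 fold change of 0.72 ± 0.15 (adjusted p = 0.0014). CACNA2D2, which binds the same drugs, ranged from 122 to 177 CPM with a median of 163 in sorted vehicle libraries and from 51 to 87.8 CPM with a median of 79.7 in unsorted ones, a log2 fold change of 1.07 ± 0.14 (adjusted p = 2.1e-05). For both genes the sorted and unsorted vehicle ranges were separate. CACNA2D3 ranged from 9.42 to 23.9 CPM with a median of 18.7 in sorted vehicle libraries and from 4.74 to 11.3 CPM with a median of 8.89 in unsorted ones. These ranges overlapped, but the sorted library was higher within every number and the log2 fold change was 1.09 ± 0.24 (adjusted p = 0.0016). With E2 the 3 genes differed by 0.96 ± 0.16, 0.80 ± 0.12 and 1.29 ± 0.22 on the log2 scale for CACNA2D1, CACNA2D2 and CACNA2D3.

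The 3 beta subunit genes did not share 1 size of change. CACNB1, the beta subunit of skeletal muscle calcium channels that other tissues also use, ranged from 40.8 to 57.9 CPM with a median of 46.7 in sorted vehicle libraries and from 19.3 to 32.3 CPM with a median of 25.7 in unsorted ones (log2 fold change 0.91 ± 0.15, adjusted p = 0.00015). CACNB2, a partner of L-type pores in the heart, ranged from 33.4 to 42.4 CPM with a median of 38.8 in sorted vehicle libraries and from 15.4 to 24.6 CPM with a median of 19 in unsorted ones (log2 fold change 0.98 ± 0.12, adjusted p = 2.1e-05). Neither gene's ranges overlapped. CACNB3 ranged from 82.1 to 124 CPM with a median of 107 in sorted vehicle libraries and from 72.6 to 104 CPM with a median of 96.1 in unsorted ones. Its groups overlapped over most of their range, and the log2 fold change of 0.18 ± 0.12 did not pass without pairing (adjusted p = 0.24). Pairing gave 0.18 ± 0.06 for CACNB3 (adjusted p = 0.023), a call lost without replicate 5 or without replicate 6 (adjusted p up to 0.072).

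Gamma-family genes encode 4-pass membrane proteins, several of which are better known as partners of AMPA-type glutamate receptors than as calcium channel subunits. CACNG7 ranged from 5.64 to 12.2 CPM with a median of 9.16 in sorted vehicle libraries, against 1.78 to 5.08 CPM with a median of 3.32 in unsorted ones, and the ranges were separate (log2 fold change 1.33 ± 0.26, adjusted p = 0.00067). CACNG2, which encodes the AMPA receptor partner stargazin, ranged from 3.79 to 9.77 CPM with a median of 4.91 in sorted vehicle libraries, against 1.78 to 4.79 CPM with a median of 2.31 in unsorted ones. Its vehicle ranges overlapped, and the log2 fold change was 1.03 ± 0.29 with vehicle (adjusted p = 0.0097) and 0.87 ± 0.28 with E2 (adjusted p = 0.018). The CACNG2 call with E2 was lost without replicate 4 or without replicate 6 (adjusted p up to 0.065). CACNG4, another AMPA receptor partner, had 3 to 20 reads per sorted vehicle library and 2 to 43 per unsorted vehicle library. Its levels were 0.426 to 0.839 CPM with a median of 0.6 in sorted and 0.376 to 1.31 CPM with a median of 1.09 in unsorted vehicle libraries, and the log2 fold change was -0.80 ± 0.31 (adjusted p = 0.044). That CACNG4 call survived only the omission of replicate 2: it was lost without replicate 1 or without replicate 3 (adjusted p up to 0.094), and without replicate 4, 5 or 6 the gene had too few reads to be tested. In the authors' deposited table the false discovery rate of CACNG4 with vehicle was 0.092. With E2 the CACNG4 log2 fold change was -0.81 ± 0.41 and did not pass (adjusted p = 0.12).

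The sodium channel pores were divided. Of 8 tested with vehicle, SCN10A, SCN9A, SCN8A and SCN3A rose in sorted cells and SCN1A, SCN2A, SCN4A and SCN7A did not pass the threshold. SCN10A, a tetrodotoxin-resistant pore best known from pain-sensing neurons, ranged from 2.22 to 5.63 CPM with a median of 3.74 in sorted vehicle libraries, against 0.188 to 1.2 CPM with a median of 0.778 in unsorted ones. The ranges were separate, and the log2 fold change of 2.39 ± 0.31 was the largest among the 24 channel genes (adjusted p = 2.5e-05). SCN10A had 13 to 112 reads per sorted vehicle library and 1 to 30 per unsorted vehicle library. The 6 within-number ratios of sorted over unsorted ran from 4.05 to 11.8, the highest from the unsorted library with 1 read. With E2, SCN10A ranged from 3.53 to 15.6 CPM in sorted and from 0.502 to 3.08 CPM in unsorted cells, with no overlap (log2 fold change 2.07 ± 0.38, adjusted p = 0.00049). SCN9A, a tetrodotoxin-sensitive pore of sensory and sympathetic neurons, ranged from 22 to 43.7 CPM with a median of 28.7 in sorted vehicle libraries and from 8.87 to 15.6 CPM with a median of 11.9 in unsorted ones (log2 fold change 1.35 ± 0.20, adjusted p = 7.8e-05). SCN8A, a pore of nodes of Ranvier and axon initial segments in neurons, ranged from 42 to 62.8 CPM with a median of 47.7 in sorted vehicle libraries and from 23.5 to 28 CPM with a median of 25.1 in unsorted ones. Both genes were separate between the groups with each treatment, and with E2 the SCN8A difference was 1.04 ± 0.13 (adjusted p = 2.5e-05).

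SCN3A, a pore most abundant in the embryonic brain, ranged from 104 to 197 CPM with a median of 177 in sorted vehicle libraries and from 58.3 to 126 CPM with a median of 88.2 in unsorted ones. The groups overlapped, but sorted libraries were higher within 6 of 6 numbers and the log2 fold change was 0.83 ± 0.19 (adjusted p = 0.0025). SCN7A encodes an atypical pore that responds to extracellular sodium and not to voltage. It ranged from 2.73 to 21.3 CPM with a median of 14.9 in sorted vehicle libraries and from 2.05 to 11.2 CPM with a median of 7.27 in unsorted ones. Library 5 was the lowest of its group for SCN7A in all 4 groups, and the log2 fold change was 0.98 ± 0.46 without pairing (adjusted p = 0.093) and 0.88 ± 0.14 with it (adjusted p = 0.00021). The paired call held in every omission.

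SCN1A and SCN2A are the main sodium pores of brain neurons. SCN2A ranged from 4.93 to 11.6 CPM with a median of 8.57 in sorted vehicle libraries and from 5.6 to 10.8 CPM with a median of 9.91 in unsorted ones. The groups lay over each other, and the log2 fold change was -0.08 ± 0.22 without pairing and -0.11 ± 0.12 with it (adjusted p = 0.41). SCN1A ranged from 5.86 to 21.2 CPM with a median of 11.1 in sorted vehicle libraries and from 9.53 to 24.6 CPM with a median of 15.1 in unsorted ones, and its paired log2 fold change of -0.40 ± 0.17 fell short of the threshold (adjusted p = 0.055). Within depths the paired SCN1A value was -0.46 in libraries 1 to 3, where it passed (adjusted p = 0.032), and -0.32 in libraries 4 to 6 (adjusted p = 0.33). SCN4A, the skeletal muscle pore, ranged from 1.34 to 3.96 CPM with a median of 1.79 in sorted vehicle libraries and from 0.531 to 2.58 CPM with a median of 1.47 in unsorted ones. The vehicle difference of 0.55 ± 0.40 did not pass (adjusted p = 0.27), and paired fits gave 1.06 in libraries 1 to 3 (adjusted p = 0.035) and 0.26 in libraries 4 to 6 (adjusted p = 0.54). With E2 the SCN4A difference was 0.97 ± 0.30 (adjusted p = 0.014), a call lost without replicate 5 (adjusted p = 0.057).

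The sodium channel beta subunit gene SCN3B rose clearly. It ranged from 62.4 to 91.5 CPM with a median of 83.5 in sorted vehicle libraries and from 27.6 to 58.5 CPM with a median of 32.3 in unsorted ones, and the ranges were separate (log2 fold change 1.15 ± 0.17, adjusted p = 7.9e-05). SCN2B, whose product is joined to its pore by a disulfide bond, was a low-count gene with 5 to 37 reads per sorted vehicle library and 1 to 40 per unsorted vehicle library. It ranged from 0.854 to 2.07 CPM with a median of 1.66 in sorted and from 0.199 to 1.25 CPM with a median of 0.759 in unsorted vehicle libraries. The SCN2B log2 fold change was 1.01 ± 0.36 with vehicle (adjusted p = 0.031) and 1.13 ± 0.42 with E2 (adjusted p = 0.035). Neither call was stable to omission: the vehicle call was lost without replicate 1 (adjusted p up to 0.06) and the E2 call without replicate 1 or 2 (adjusted p up to 0.083), and without replicate 4, 5 or 6 the gene was not tested in either.

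The direction was shared between the treatments. With E2 and with vehicle alike, 17 channel genes were called without pairing, all in the same direction, which is 89.5% of the 19 called with E2 and 94.4% of the 18 called with vehicle. The 2 comparisons used different libraries whose numbers pair, so they are not independent. The same overlap over all genes is not given here. In paired fits within each depth, 18 were higher and 1 lower with E2 in libraries 1 to 3, beside 26.8% and 27.6% of all genes, and 19 and 1 in libraries 4 to 6, beside 32.4% and 33.9%. The lower gene was CACNA1A in libraries 1 to 3 and CACNG4 in libraries 4 to 6, where CACNA1A had -0.62 and did not pass (adjusted p = 0.058). With vehicle 18 were higher and 2 lower in libraries 1 to 3, beside 25.3% and 26.6% of all genes, and 18 and 2 in libraries 4 to 6, beside 32.7% and 34%. CACNA1A was lower in both, with SCN1A in libraries 1 to 3 and CACNG4 in libraries 4 to 6.

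The second comparison asked what 6 hours of E2 did to the channel genes. In sorted cells, without pairing, 0 of 23 tested genes were higher and 1 was lower with E2 in edgeR, where 1.11% of all genes were higher and 0.258% lower. At an unadjusted p under 0.05 the count was 4, beside 7.14% of all genes, and DESeq2 called 2, namely SCN10A higher and SCN3B lower, beside 2.09% of all genes higher and 0.705% lower. With libraries paired by number, 5 were higher and 4 lower, beside 7.03% and 6.2% of all 14334 genes, and 12 had an unadjusted p under 0.05, beside 23.7%. In unsorted cells, 0 of 24 were called in either direction without pairing, beside 0.212% higher and 0.0331% lower of all genes, with 4 at an unadjusted p under 0.05, beside 2.82% of all genes. DESeq2 called 2 higher (SCN10A and CACNA2D2) and 0 lower there, beside 0.67% and 0.152% of all genes. The paired fit called 4 higher and 4 lower in unsorted cells, beside 2.86% and 2.37% of all 15083 genes, and 11 had an unadjusted p under 0.05, beside 15.3%. E2 fold changes below are from the paired fit unless stated. The E2 comparison in sorted cells and the comparison of sorted with unsorted vehicle cells share the sorted vehicle libraries. The fibroblast and pericyte, folliculostellate, smooth muscle and endothelial lists had 0 genes called with E2 in either cell preparation, with or without pairing, and their sums overlapped between treatments, for fibroblast and pericyte markers 740 to 1730 CPM in the sorted E2 libraries and 674 to 1420 CPM in the sorted vehicle libraries. Other lists did have calls. Among the 9 markers of other endocrine cells, 2 were lower with E2 in sorted cells without pairing, namely the TRH receptor gene TRHR (adjusted p = 0.023; paired log2 fold change -0.97 ± 0.07) and the transcription factor gene POU1F1 (log2 fold change -0.75 ± 0.10, adjusted p = 0.001). The paired fit called 1 of the 9 higher and 3 lower in each preparation. Their sums overlapped, at 67500 to 187000 CPM in sorted E2 and 77600 to 207000 CPM in sorted vehicle libraries. In the neuron list SNAP25 and NEFL were lower in the paired fit in each preparation, with log2 fold changes of -0.17 and -0.20 in sorted cells and -0.22 and -0.21 in unsorted cells. Of 6 tested gonadotrope markers, 1 was higher and 1 lower in the paired fit in each preparation. The part of these shifts in the E2 results of the channel genes was not tested.

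**Figure D4:**
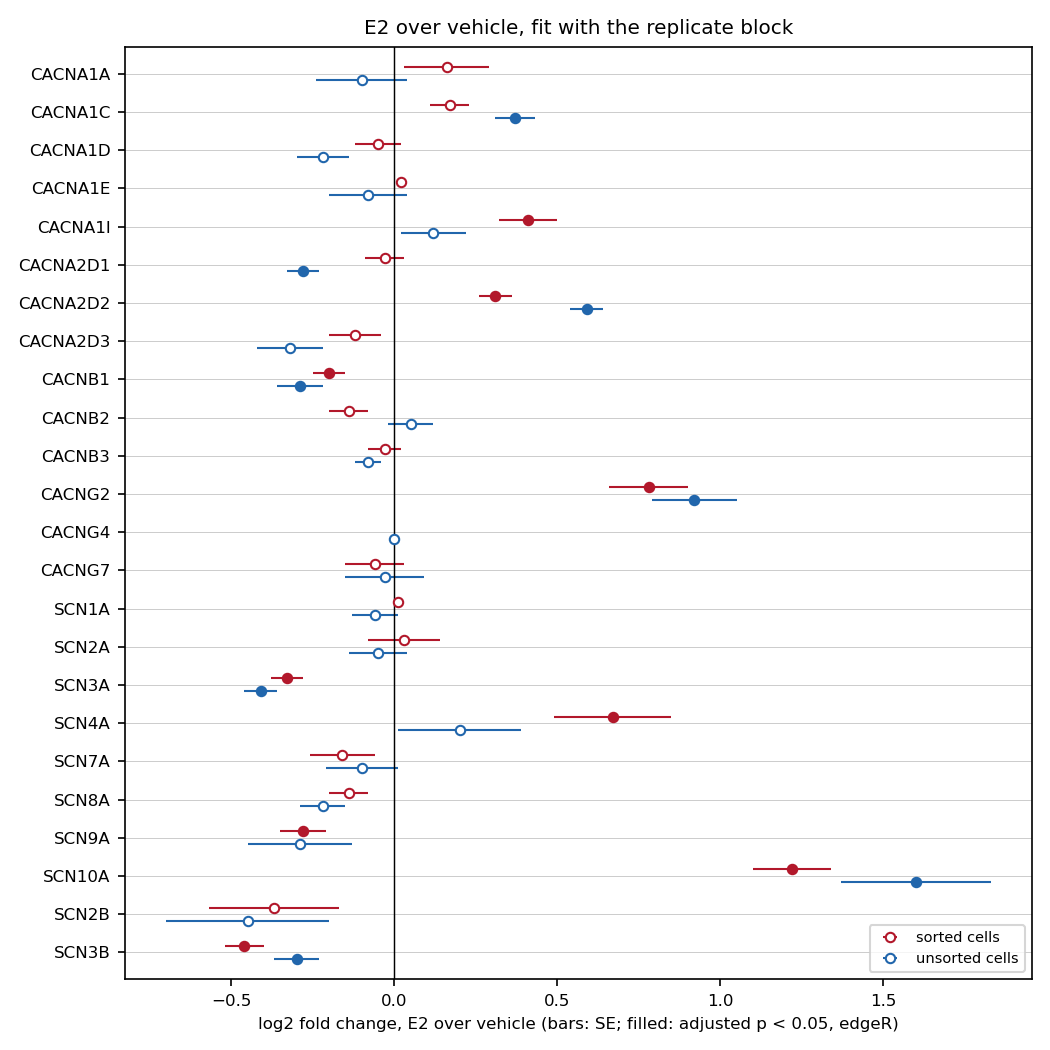
Log2 fold change of each channel gene, E2 over vehicle, in sorted cells (red, upper point) and unsorted cells (blue, lower point), from the edgeR fit that pairs libraries by replicate number; bars are standard errors (none drawn within 0.02 of 0), and filled points have an adjusted p under 0.05. SCN10A lies farthest to the right in both preparations, CACNG2 is next, and SCN3A, SCN3B and CACNB1 lie to the left with filled points in both. Other genes also lie to the left in both, among them SCN2B, with open points, and SCN9A, filled in sorted cells only.

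SCN10A had the largest E2 change among the 24. Its levels were 15.6, 3.53, 5.37, 7.18, 10.9 and 11.2 CPM in sorted E2 libraries 1 to 6, against 5.63, 2.22, 3.62, 3.41, 3.86 and 4.7 CPM in sorted vehicle libraries 1 to 6. Libraries 2 and 3 with E2 lay within the vehicle range, while each E2 library was 1.48 to 2.82 times the vehicle library of its number. The paired log2 fold change was 1.22 ± 0.12 (adjusted p = 4.9e-07), with 1.07 in libraries 1 to 3 and 1.27 in libraries 4 to 6, and the unpaired one was 1.20 ± 0.32 (adjusted p = 0.11). In unsorted cells SCN10A ranged from 0.502 to 3.08 CPM with a median of 2.19 in E2 libraries and from 0.188 to 1.2 CPM with a median of 0.778 in vehicle libraries. E2 was higher within 5 of 6 numbers, and the paired log2 fold change was 1.60 ± 0.23 (adjusted p = 0.00011; unpaired 1.51 ± 0.37, adjusted p = 0.19). The exception in unsorted cells was number 3, with 0.502 CPM (3 reads) in its E2 library and 0.892 CPM (5 reads) in its vehicle library. Without replicate 4, 5 or 6 SCN10A was not tested there. In the authors' deposited tables the log2 fold change of SCN10A with E2 was 1.22 in sorted cells (false discovery rate 0.048) and 1.51 in unsorted cells (false discovery rate 0.025). In each of these E2 comparisons it was the 1 channel gene with a false discovery rate under 0.05.

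**Figure D5:**
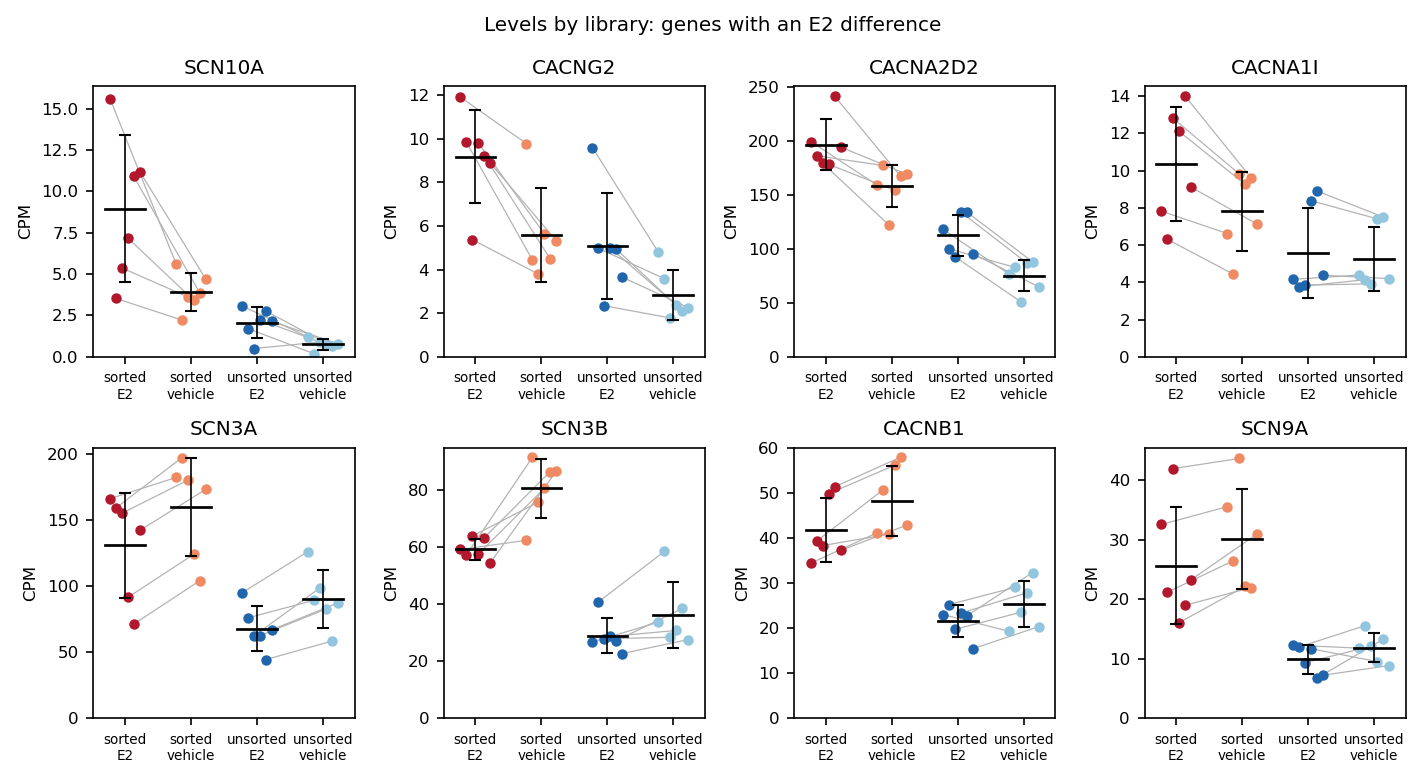
CPM of 8 channel genes in each library (points) of the 4 groups, with group mean (line) and SD (whiskers, cut at 0); grey lines join the E2 and vehicle libraries of the same replicate number within sorted and within unsorted cells. The top row holds genes whose lines mostly run down from E2 to vehicle (for CACNA1I in sorted cells) and the bottom row genes whose lines mostly run up, and for SCN10A in sorted cells the spread between numbers is as wide as the treatment difference.

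CACNA2D2 and CACNG2 were also higher with E2 in both preparations. CACNA2D2 ranged from 178 to 241 CPM with a median of 190 in sorted E2 libraries, against 122 to 177 CPM with a median of 163 in sorted vehicle libraries. In unsorted cells it ranged from 92.7 to 134 CPM with a median of 109 with E2 and from 51 to 87.8 CPM with a median of 79.7 with vehicle. The E2 and vehicle ranges did not overlap in either preparation, and the log2 fold change was 0.31 ± 0.05 in sorted cells (adjusted p = 0.00046; unpaired adjusted p = 0.19) and 0.59 ± 0.05 in unsorted cells (adjusted p = 5e-07; unpaired adjusted p = 0.21). CACNG2 ranged from 5.37 to 11.9 CPM with a median of 9.52 in sorted E2 libraries, against 3.79 to 9.77 CPM with a median of 4.91 in sorted vehicle libraries. The vehicle range reached into the E2 range through vehicle libraries 1 and 4, at 9.77 and 5.64 CPM, and E2 was higher within 6 of 6 numbers in both preparations. The log2 fold change of CACNG2 was 0.78 ± 0.12 in sorted cells (adjusted p = 6.4e-05; unpaired adjusted p = 0.26). In unsorted cells, with 2.34 to 9.59 CPM with E2 and 1.78 to 4.79 CPM with vehicle, it was 0.92 ± 0.13 (adjusted p = 9.9e-05; unpaired adjusted p = 0.95).

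Further rises passed in 1 preparation each. CACNA1I ranged from 6.31 to 14 CPM with a median of 10.6 in sorted E2 libraries and from 4.44 to 9.82 CPM with a median of 8.19 in sorted vehicle libraries, a paired log2 fold change of 0.41 ± 0.09 (adjusted p = 0.004; unpaired adjusted p = 0.93). In unsorted cells the CACNA1I value was 0.12 ± 0.10 and did not pass (adjusted p = 0.65). SCN4A ranged from 1.81 to 3.97 CPM with a median of 3.16 in sorted E2 libraries and from 1.34 to 3.96 CPM with a median of 1.79 in sorted vehicle libraries. Its ranges overlapped through vehicle library 3, at 3.96 CPM, with the next vehicle library at 2.39 CPM. They also overlapped through E2 library 6, at 1.81 CPM, which lay below vehicle libraries 1 to 3. The paired call, at a log2 fold change of 0.67 ± 0.18 (adjusted p = 0.014, unpaired adjusted p = 0.87), was lost without replicate 5 (adjusted p = 0.14). In unsorted cells the paired SCN4A value was 0.20 ± 0.19 and did not pass (adjusted p = 0.72). CACNA1C ranged from 27.8 to 65.4 CPM with a median of 40.6 in unsorted E2 libraries and from 25.3 to 53.3 CPM with a median of 29.3 in unsorted vehicle libraries, a paired log2 fold change of 0.37 ± 0.06 (adjusted p = 0.00096; unpaired adjusted p = 1). In sorted cells its paired value was 0.17 ± 0.06 (adjusted p = 0.073).

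Other channel genes were lower with E2. SCN3B had 59.2, 57.3, 63.9, 57.6, 63.3 and 54.5 CPM in sorted E2 libraries 1 to 6, against 62.4, 91.5, 75.8, 80.6, 86.5 and 86.6 CPM in sorted vehicle libraries 1 to 6. Only vehicle library 1 lay within the E2 range, and E2 was lower within 6 of 6 numbers. SCN3B was the gene called without pairing among the 23 tested, with a log2 fold change of -0.44 ± 0.09 (adjusted p = 0.026), a call lost without any of replicates 2 to 6 (adjusted p up to 0.19). The paired value of -0.46 ± 0.06 (adjusted p = 6.1e-05) held in every omission. In the authors' deposited table the log2 fold change of SCN3B in sorted cells was -0.43, with a false discovery rate of 0.11. In unsorted cells SCN3B ranged from 22.7 to 40.8 CPM with a median of 27.6 with E2 and from 27.6 to 58.5 CPM with a median of 32.3 with vehicle, a paired log2 fold change of -0.30 ± 0.07 (adjusted p = 0.0059) that was lost without replicate 5 (adjusted p = 0.056).

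SCN3A ranged from 71.2 to 166 CPM with a median of 149 in sorted E2 libraries, against 104 to 197 CPM with a median of 177 in sorted vehicle libraries. Its groups overlapped, as they did in unsorted cells, where it ranged from 44.4 to 94.8 CPM with a median of 64.7 with E2 and from 58.3 to 126 CPM with a median of 88.2 with vehicle. E2 was lower within 6 of 6 numbers in both, with paired log2 fold changes of -0.33 ± 0.05 in sorted cells (adjusted p = 5.7e-05) and -0.41 ± 0.05 in unsorted cells (adjusted p = 1.3e-05); the unpaired adjusted p was 1 in each. CACNB1 ranged from 34.4 to 51.3 CPM with a median of 38.8 in sorted E2 libraries and from 40.8 to 57.9 CPM with a median of 46.7 in sorted vehicle libraries. Its paired log2 fold change was -0.20 ± 0.05 in sorted cells (adjusted p = 0.012). In unsorted cells, with 15.4 to 25.2 CPM with E2 and 19.3 to 32.3 CPM with vehicle, CACNB1 had -0.29 ± 0.07 (adjusted p = 0.021), lost without any of replicates 3 to 6 (adjusted p up to 0.16). SCN9A ranged from 16.1 to 42 CPM with a median of 22.2 in sorted E2 libraries and from 22 to 43.7 CPM with a median of 28.7 in sorted vehicle libraries, a paired log2 fold change of -0.28 ± 0.07 (adjusted p = 0.0074) that was lost without replicate 6 (adjusted p = 0.067). In unsorted cells the paired SCN9A value was -0.29 ± 0.16 and did not pass (adjusted p = 0.45). Neither CACNB1 nor SCN9A passed without pairing in either preparation. CACNA2D1 passed in unsorted cells, where it ranged from 32.6 to 55.5 CPM with a median of 42.2 with E2 and from 39.7 to 64 CPM with a median of 53.3 with vehicle, a paired log2 fold change of -0.28 ± 0.05 (adjusted p = 0.0025; unpaired adjusted p = 1). In sorted cells the paired CACNA2D1 value was -0.03 ± 0.06 and did not pass (adjusted p = 0.83).

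The paired fits in sorted and in unsorted cells shared 6 called genes, all in the same direction, which is 66.7% of the 9 called in sorted cells and 75% of the 8 called in unsorted cells. SCN10A, CACNG2 and CACNA2D2 were higher, and SCN3A, SCN3B and CACNB1 lower, with E2 in both. Same-numbered sorted and unsorted libraries vary together, so the 2 fits are not independent. The overlap over all genes is not given here, so these shares have no background beside them. In paired fits within each depth, 2 were higher and 2 lower in sorted libraries 1 to 3, beside 2.93% and 1.31% of all genes, and 5 and 3 in sorted libraries 4 to 6, beside 4.8% and 3.75%. In unsorted cells the counts were 1 and 1 in libraries 1 to 3, where 20 channel genes had enough reads, beside 0.427% and 0.0749% of all genes, and 4 and 3 in libraries 4 to 6, beside 2.51% and 2.08%. Genes that were called between sorted and unsorted cells and not with E2 in either fit or preparation included CACNA1D, whose paired E2 change was -0.05 ± 0.07 in sorted cells and -0.22 ± 0.08 in unsorted cells (adjusted p = 0.16), and SCN8A, at -0.14 ± 0.06 in sorted cells (adjusted p = 0.2) and -0.22 ± 0.07 in unsorted cells (adjusted p = 0.068).

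Whether the E2 change differed between sorted and unsorted cells was tested as an interaction over all 24 libraries. Of 24 channel genes, 0 were called in edgeR without or with pairing and 0 in DESeq2, beside 0.0264% higher and 0% lower of all 15134 genes without pairing and 0.33% and 0.132% with it. DESeq2 called 0.106% of all genes higher and 0.0396% lower and gave no adjusted p for 8 of the 24. At an unadjusted p under 0.05 there were 0 without pairing, beside 1.56% of all genes, and 1 with it, beside 5.37%. That gene was CACNA2D2, with a paired difference of -0.28 ± 0.12 on the log2 scale and a smaller rise in sorted than in unsorted cells within 6 of 6 numbers (adjusted p = 0.81). For SCN10A the paired difference was -0.42 ± 0.30. The pairing in this fit gives each number a single effect shared by sorted and unsorted libraries. E2 and vehicle libraries are therefore not paired within each preparation. For CACNA2D2 the standard error was 0.12 here and 0.05 in each paired E2 fit. Whether a fit paired within preparations would call a difference was not tested.

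Genes of the channel complexes outside the families were followed through a list of 30 partners and regulators, of which 24 were tested between sorted and unsorted vehicle libraries. There 10 were higher and 3 lower in sorted cells, beside 24.4% and 25.8% of all genes, with a median log2 fold change of 0.19, against 0.02 over all genes. NALCN, the sodium leak channel that sets resting excitability, averaged 51.8 ± 7.88 CPM in sorted and 22.5 ± 1.91 CPM in unsorted vehicle libraries (SD, n = 6 each), a log2 fold change of 1.20 ± 0.12. UNC79, a subunit of the NALCN complex, averaged 111 ± 13.4 CPM in sorted and 49.6 ± 5.23 CPM in unsorted vehicle libraries, a log2 fold change of 1.16 ± 0.10. RIMBP2, which ties calcium channels to the release machinery, differed by 1.43 ± 0.14, and ANK3, which anchors sodium channels to the cytoskeleton, by 1.08 ± 0.12. All 4 had adjusted p-values of 6e-06 or less. RRAD, a small GTPase-like inhibitor of calcium channel beta subunits, averaged 5.23 ± 1.89 CPM in sorted and 23.7 ± 7.72 CPM in unsorted vehicle libraries, and fell by 2.18 ± 0.26 on the log2 scale (adjusted p = 1.1e-05); it was singled out after its values were seen. With E2, 1 of 23 tested partners was called without pairing in sorted cells, as higher, beside 1.11% higher and 0.258% lower of all genes. It was TMEM37, whose product resembles gamma subunits, at 9.46 to 19.4 CPM in sorted E2 libraries and 2.39 to 3.96 CPM in sorted vehicle libraries. In unsorted cells TMEM37 ranged from 2.57 to 6.57 CPM with E2 and from 1.07 to 2.99 CPM with vehicle, and rose in the paired fit by 1.20 ± 0.15 (adjusted p = 1.6e-05). In the paired fit for sorted cells 2 of 23 partners were higher and 0 lower, beside 7.03% and 6.2% of all genes. The partner called beside TMEM37 was NEDD4L, a ubiquitin ligase that acts on sodium channels (0.20 ± 0.04, adjusted p = 0.0023). In unsorted cells 1 of 24 was higher and 3 lower, beside 2.86% and 2.37% of all genes. The lower partners included RIMBP2 (-0.59 ± 0.08, adjusted p = 3.6e-05) and STAC, an adaptor of L-type channels (-0.68 ± 0.14, adjusted p = 0.0035).

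Genes that move calcium within the cell and across its membrane by other routes split in both directions. Of 22 tested between sorted and unsorted vehicle libraries, 8 were higher and 3 lower, beside 24.4% and 25.8% of all genes, with a median log2 fold change of 0.19. The paired fit gave 11 and 6, beside 32.5% and 31.1% of all genes. SLC8A2, a sodium-calcium exchanger, averaged 5.21 ± 2.45 CPM in sorted and 1.47 ± 0.479 CPM in unsorted vehicle libraries and rose by 1.87 ± 0.32 (adjusted p = 0.00028). RYR3, a ryanodine receptor that releases stored calcium, averaged 3.42 ± 1.19 CPM in sorted and 1.02 ± 0.241 CPM in unsorted vehicle libraries and rose by 1.78 ± 0.31 (adjusted p = 0.00031). ITPR3, an inositol trisphosphate receptor, averaged 21.9 ± 4.54 CPM in sorted and 74.8 ± 10.4 CPM in unsorted vehicle libraries and fell by 1.78 ± 0.15 (adjusted p = 6.1e-07), and ORAI1, the pore of store-operated entry, fell by 1.22 ± 0.21 (adjusted p = 3e-04). With E2, 0 of 23 tested in sorted cells were called without pairing, beside 1.11% higher and 0.258% lower of all genes. For unsorted cells the count was 0 of 22, beside 0.212% and 0.0331%. In the paired fit for sorted cells 1 was higher and 2 lower, beside 7.03% and 6.2% of all genes. These were SLC8A2 (0.44 ± 0.11, adjusted p = 0.0072), the plasma membrane calcium pump ATP2B1 (-0.26 ± 0.04, adjusted p = 9.7e-05) and the store calcium sensor STIM2 (-0.20 ± 0.05, adjusted p = 0.0058). In unsorted cells the paired count was 0, beside 2.86% higher and 2.37% lower of all genes.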

How the data were processed

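The authors deposited whole-number read counts per gene in 3 tables with Ensembl sheep identifiers; per the submitters' processing notes, reads were counted with featureCounts 1.5.1. Neither aligner nor genome build nor strandedness is given in the sources used here, and reads of overlapping genes on opposite strands cannot be told apart. The 12 vehicle columns stand in 2 tables, and 0 values differed between the copies. The authors also deposited log2 fold changes, p-values and false discovery rates, per the file headers from edgeR; they are used only where named.

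Counts were fitted in R 4.3.3 with edgeR 4.0.16 (TMM, filterByExpr on the groups compared with a minimum count of 10, robust glmQLFit, 2-sided quasi-likelihood F-test) over all genes, with Benjamini-Hochberg adjustment and a threshold of 0.05. Standard errors are the log2 fold change over the square root of F. CPM, read counts scaled to library size, uses TMM-scaled totals over 24 libraries. The code was tested on simulated data. Alternatives were DESeq2 1.42.0 with its size factors, no filter, libraries 1 to 3 or 4 to 6 alone, omission of each number, and replicate number as a block. No label says what a number marks. In counts centred by group, 36 of 36 same-numbered pairs correlated at r = 0.29 to 0.859, each best with its own number, and the numbers were taken to pair the libraries. Reads are not independent molecules, so counting error is part of the spread.

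The members and gene lists were chosen with earlier results of these data known. Genes named are members called in some fit or with a group mean of at least 5 CPM, and up to 4 genes of each accompanying list with the smallest p in a comparison; of these a selection is given. RefSeq names were matched by symbol for 29 of the 32 genes. Of the 34 features the naming rule matches, 2 stayed in every fit and are not reported here.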

Additional observations from a re-analysis of the deposited data

Results flagged for a closer look

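Of 96 sets of 6 libraries examined (24 channel genes in 4 groups), 7, or 7.29%, held a library whose gap to its nearest neighbour was past Dixon's 95% limit for 6 values relative to the group's range. Chance alone marks about 1 in 20 such sets, and the libraries and genes are not independent.

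Library 1 stood apart for CACNG2, at 9.77 CPM in sorted vehicle library 1, with the next library at 5.64 CPM, and at 9.59 CPM in unsorted E2 library 1, with the next at 4.99 CPM. SCN10A was also highest of its group in library 1 in all 4 groups. Library 2 stood apart for SCN3B in unsorted cells, with 40.8 CPM in the E2 library and 58.5 CPM in the vehicle library, and for CACNG4 in unsorted vehicle cells, at 0.376 CPM. CACNA2D2 was 241 CPM in sorted E2 library 5, and SCN2A was 5.6 CPM in unsorted vehicle library 5. The causes were not tested.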

How the results depend on the processing

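No gene named reversed its direction while called under any alternative, and the difference of the E2 effects had 0 channel genes called in every fit. Counts higher in sorted cells stayed within 1.5 times of the reported 16 with vehicle and 18 with E2. The count lower with vehicle, reported as 2, was 1 with DESeq2 and 1 with no filter on low counts, where CACNG4 was lost, and 1 to 2 when single replicates were left out, with or without pairing. The count lower with E2, reported as 1, was 0 to 2 when single replicates were left out and 1 to 2 with pairing. The replicate block moved the E2 counts most. In sorted cells, 5 were higher and 4 lower with the block, against 0 and 1 without it; 1 was higher with DESeq2; 2 and 2 passed in libraries 1 to 3 and 5 and 3 in libraries 4 to 6; and single omissions gave 0 to 1 lower unpaired, and 4 to 6 higher and 3 to 4 lower paired. In unsorted cells, 4 were higher and 4 lower with the block, against 0 and 0 without it; 2 were higher with DESeq2; 1 and 1 passed in libraries 1 to 3 and 4 and 3 in libraries 4 to 6; and single omissions gave 0 in either direction unpaired, and 3 to 4 higher and 2 to 5 lower paired. Paired omissions were added after seeing the data. For the single omissions, the share of all genes called is not given here. The same holds for the DESeq2 and no-filter fits between sorted and unsorted cells. Those counts therefore have no background beside them and show only how the calls depend on the fit. Fewer genes had enough reads without a deep library (4, 5 or 6). The cause of the other shifts was not tested.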
